A study of Mus musculus with 282 samples.

Results

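Sod2, the ferritin subunits Fth1 and Ftl1, and 3 further genes of iron handling, Hmox1, Tfrc and Slc40a1, were followed across single granulocyte-monocyte progenitors (GMPs) that had received TNF or for which no cytokine is named. The 6 genes were chosen by name, with their levels by stimulus and response class in these cells already known, and are 6 of the 55450 genes of the count tables (Sod2 ENSMUSG00000006818, Fth1 ENSMUSG00000024661, Ftl1 ENSMUSG00000050708, Hmox1 ENSMUSG00000005413, Tfrc ENSMUSG00000022797 and Slc40a1 ENSMUSG00000025993). Their levels by stimulus and by class are therefore given as a description, with no test. Cell cycle phase is not in the rule that chose the genes, and only the phase comparisons were tested. They are not fully apart from the choice, since the make-up of response classes differed between phases.

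GMPs are progenitors in the bone marrow from which granulocytes and monocytes arise. All cells, with and without TNF, came from male and female mice aged 12 to 19 weeks that were homozygous for GFP-p65 and heterozygous for H2BmCherry. The first allele tags p65, a subunit of the transcription factor NfκB, with a fluorescent protein, and the second marks nuclei, so no cell here is free of either tag. The cells were cultured for 8 h under a confocal microscope, picked singly and sequenced with a Smart-Seq2 protocol, which amplifies polyadenylated RNA. The authors' cell tables list 238 of 282 samples, 178 cells with TNF and 60 whose cytokine entry is blank, and give each a response class and a cell cycle phase by rules not given in the sources used here. The TNF cells comprise 51 of a 1-plate and 127 of a 2-plate experiment, and the blank cells 16 and 44. The label GMP could not be checked against marker genes, because the files pair no names with identifiers.

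Sod2 encodes the manganese superoxide dismutase of mitochondria, which turns superoxide into hydrogen peroxide, and it is a well known target of NfκB. Iron that is not in use is held in ferritin, a hollow shell built of heavy subunits (Fth1), which oxidise iron so that it can enter, and light subunits (Ftl1), which help it to settle in the core. Tfrc, the transferrin receptor, brings iron into the cell, Slc40a1 (ferroportin) exports it, and Hmox1 (haem oxygenase) frees it from haem. Iron regulatory proteins bind ferritin and Tfrc messages when iron is scarce, which holds back ferritin translation and protects Tfrc RNA from decay, and inflammatory signals are known to act on the same genes. RNA levels do not show protein or iron.

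Promoter windows of 250 bases before the annotated start were at hand for 4 of the 6 genes from RefSeq on build GRCm38.p6, and 3 are printed, those of Sod2 and the ferritin genes, which carry the largest and the most unequal differences below. Capitals mark a match to the kappaB consensus, the general binding pattern of NfκB, searched on both strands. Fth1 has 2 listed starts, and the window of the second is shown. The Sod2 window is chr17:13007589-13007838 on the plus strand, the Ftl1 window chr7:45459887-45460136 on the minus strand, and the Fth1 window chr19:9982396-9982645 on the plus strand.
Sod2: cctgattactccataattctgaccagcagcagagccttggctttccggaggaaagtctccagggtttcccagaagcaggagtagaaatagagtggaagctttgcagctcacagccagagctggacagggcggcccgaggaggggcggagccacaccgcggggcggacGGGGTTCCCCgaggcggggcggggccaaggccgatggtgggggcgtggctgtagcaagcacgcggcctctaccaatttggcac
Ftl1: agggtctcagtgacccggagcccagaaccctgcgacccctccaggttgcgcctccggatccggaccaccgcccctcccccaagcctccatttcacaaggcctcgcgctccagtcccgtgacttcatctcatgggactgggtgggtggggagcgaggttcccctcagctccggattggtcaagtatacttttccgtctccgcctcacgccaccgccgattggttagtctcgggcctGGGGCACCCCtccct
Fth1: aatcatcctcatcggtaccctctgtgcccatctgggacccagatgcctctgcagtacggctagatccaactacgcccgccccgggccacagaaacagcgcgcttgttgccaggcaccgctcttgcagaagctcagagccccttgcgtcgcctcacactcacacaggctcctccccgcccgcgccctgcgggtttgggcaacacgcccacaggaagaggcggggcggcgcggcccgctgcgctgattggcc

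The Sod2 window holds 1 match that begins 83 bases before the start, and the Ftl1 window 1 match that begins 15 bases before it. The Fth1 and Tfrc windows, 2 starts each, hold 0. The consensus occurs in 3.90% of 32851 windows of the same length across all genes. The core of the antioxidant response element, TGACNNNGC, occurs in 0 of the 6 windows of these genes and in 10.2% of all windows. With no match of the second motif, the 2 motifs do not overlap in these windows. A match in so short a window is a description of its letters, and says nothing on whether a factor binds there or elsewhere near the gene.

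Gene reads numbered 182301 to 3380416 in a cell (median 1339520). Levels are given as reads per 1000000 gene reads (CPM), either of 1 cell or of the summed reads of a group of cells within an experiment. The experiment is the replicate (n = 2), since cells of 1 experiment share their source, and no label states whether their animals were different. Fewer than 8000 genes were detected in 28 cells, of which 26 were on Plate2 of the 2-plate experiment and 24 had TNF. Spike-in reads were 0.127% of TNF and 0.295% of blank reads in the 1-plate experiment, against 1.73% of TNF and 1.33% of blank reads in the 2-plate experiment.

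Sod2 was the member with the widest separation between stimuli. In the 1-plate experiment single TNF cells ranged from 99.4 CPM to 1402 CPM with a median of 459 CPM, and blank cells from 57.5 CPM to 281 CPM with a median of 166 CPM. In the 2-plate experiment TNF cells ranged from 0 to 2123 CPM with a median of 433 CPM, and blank cells from 22.5 CPM to 539 CPM with a median of 184 CPM. The ranges overlapped in both experiments, but 43 of 51 and 55 of 127 TNF cells lay above the highest blank cell of their experiment. Summed reads gave 596 CPM in TNF and 172 CPM in blank cells of the 1-plate experiment, and 665 CPM in TNF and 189 CPM in blank cells of the 2-plate experiment. The log2 ratio of TNF over blank was 1.80 ± 0.01 (SD, n = 2 experiments), a 3.49-fold difference. By plate, the ratio was 3.75 on Plate1, 3.27 on Plate2 and 3.46 on the single plate of the other experiment.

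Fth1, the heavy ferritin subunit, was also higher in TNF cells, with more overlap. Median cells held 5875 CPM with TNF and 2069 CPM with blank in the 1-plate experiment, and 5000 CPM with TNF and 1993 CPM with blank in the 2-plate experiment. The lowest and highest TNF cells were at 705 CPM and 15122 CPM in the 1-plate experiment and at 345 CPM and 27247 CPM in the 2-plate experiment, against 670 CPM and 8012 CPM, and 558 CPM and 7087 CPM, in blank cells. Of the TNF cells, 16 of 51 and 43 of 127 exceeded the highest blank cell, and 44 of 51 and 99 of 127 exceeded the median blank cell. Summed reads gave 7045 CPM in TNF and 2719 CPM in blank cells of the 1-plate experiment, and 6987 CPM in TNF and 2561 CPM in blank cells of the 2-plate experiment. The log2 ratio was 1.41 ± 0.05 (SD, n = 2 experiments), or 2.66-fold, with 3.22-fold on Plate1 and 2.25-fold on Plate2.

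Ftl1, the light subunit, differed far less. Summed reads gave 2429 CPM in TNF and 1933 CPM in blank cells of the 1-plate experiment, and 3357 CPM in TNF and 2571 CPM in blank cells of the 2-plate experiment. The log2 ratio was 0.36 ± 0.04 (SD, n = 2 experiments), or 1.28-fold. Median TNF cells were at 2265 CPM and 3112 CPM in the 1-plate and the 2-plate experiment, and median blank cells at 1559 CPM and 2296 CPM. The groups overlapped almost fully: 1 of 51 and 5 of 127 TNF cells exceeded the highest blank cell.

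The 2 ferritin subunits therefore differed in proportion as well as in level. The ratio of Fth1 to Ftl1 reads, which is not corrected for transcript length and is compared only between groups, was 2.90 in TNF and 1.41 in blank cells of the 1-plate experiment. In the 2-plate experiment it was 2.08 in TNF and 0.996 in blank cells. Fth1 reads outnumbered Ftl1 reads in 51 of 51 and 113 of 127 TNF cells, against 15 of 16 and 19 of 44 blank cells. Both plates of the 2-plate experiment showed the same order, with 2.22 in TNF and 0.980 in blank cells on Plate1, and 1.90 in TNF and 1.01 in blank cells on Plate2. The RefSeq table lists 4 ferritin heavy chain and 3 ferritin light chain pseudogenes in the mouse, so reads of either gene may have been shared with near-identical copies, and the level of each is uncertain to that extent.

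**Figure D1:**
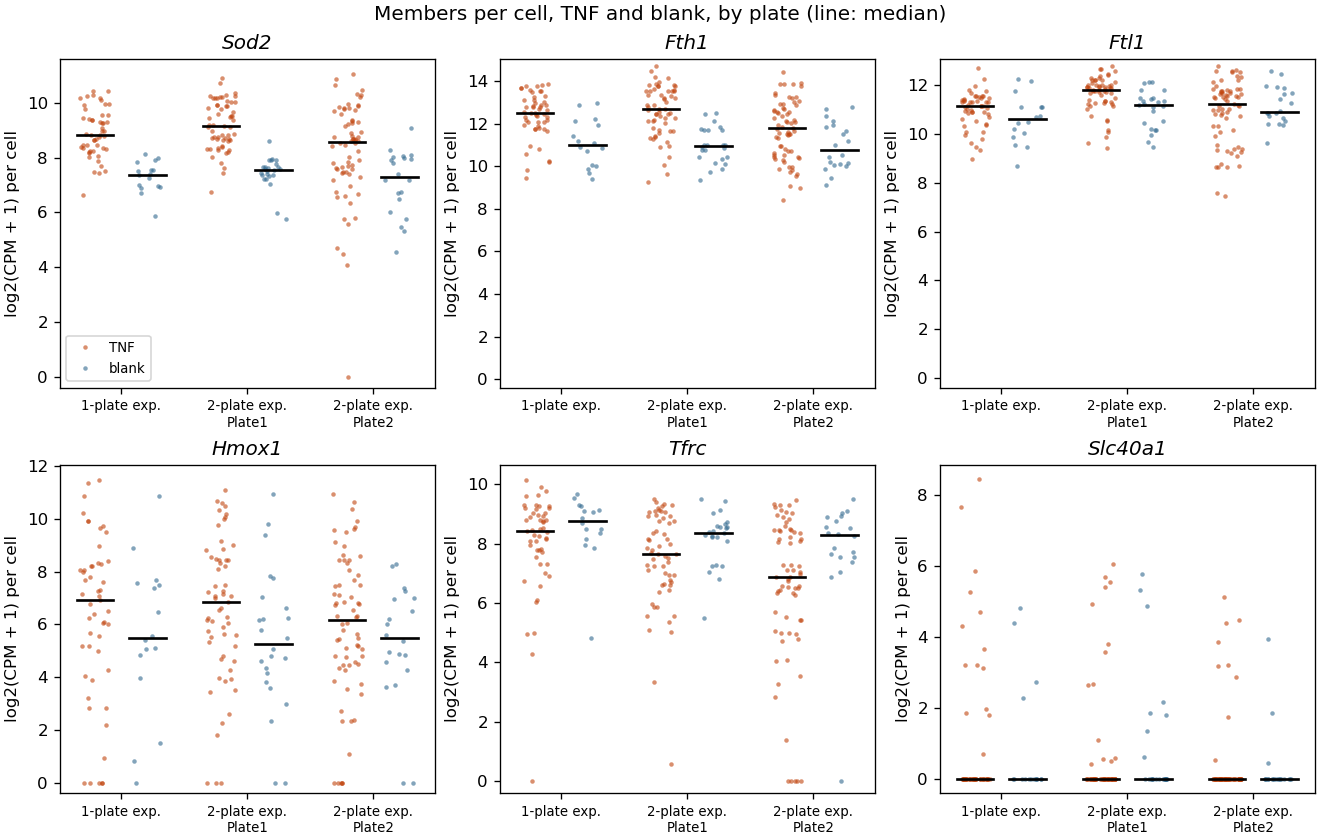
Each point is 1 cell, with the level of a gene as log2(CPM + 1) on the vertical axis and TNF cells (orange) left of blank cells (blue) within each plate on the horizontal axis; black lines are medians. Sod2 and Fth1 medians are higher with TNF on all 3 plates, Tfrc medians are lower by this scaling to gene reads, and most cells have no Slc40a1 read.

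Hmox1 spread widely from cell to cell. TNF cells ranged from 0 to 2867 CPM with a median of 120 CPM in the 1-plate experiment, and from 0 to 2159 CPM with a median of 79.7 CPM in the 2-plate experiment. Blank cells ranged from 0 to 1870 CPM with a median of 43.9 CPM, and from 0 to 1969 CPM with a median of 41.9 CPM. A read was found in 92.7% of 178 TNF cells and in 91.7% of 60 blank cells (exact 95% intervals 87.8% to 96.1% and 81.6% to 97.2%). These intervals treat the pooled cells as independent draws and do not cover variation between experiments. Among the 157 TNF and 57 blank cells deep enough to be thinned to 458260 reads, the shares were 90.4% of TNF and 93% of blank cells. Summed reads gave 354 CPM in TNF and 211 CPM in blank cells of the 1-plate experiment, 291 CPM in TNF and 157 CPM in blank cells of the 2-plate experiment, and a log2 ratio of 0.82 ± 0.10 (SD, n = 2 experiments). A single cell gave 64.2% of the blank reads of the 1-plate experiment and 28.1% of those of the 2-plate experiment. Without the cell with the most Hmox1 reads in each group the levels were 305 CPM in TNF and 81.2 CPM in blank cells, and 275 CPM in TNF and 115 CPM in blank cells, and the log2 ratio was 1.58. The size of the Hmox1 difference thus rests on a few cells, and its sign kept under the settings tried.

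Tfrc was lower in TNF cells when scaled to gene reads, but not in both experiments when scaled to spike-in reads. Summed reads gave 351 CPM in TNF and 465 CPM in blank cells of the 1-plate experiment, and 264 CPM in TNF and 342 CPM in blank cells of the 2-plate experiment, a log2 ratio of -0.39 ± 0.02 (SD, n = 2 experiments). Median TNF cells were at 342 CPM and 154 CPM in the 1-plate and the 2-plate experiment, and median blank cells at 439 CPM and 321 CPM. The lowest TNF cells had 0 and the highest 1142 CPM and 734 CPM, against lowest blank cells of 27.3 CPM and 0 and highest of 815 CPM and 727 CPM. Of the TNF cells, 31 of 51 and 87 of 127 lay at or below the median blank cell. Scaling by spike-in reads in place of gene reads moved all genes by 1.22 in the 1-plate experiment and by -0.39 in the 2-plate experiment on the log2 scale, and gave Tfrc spike-scaled log2 ratios of 0.82 and -0.76. The spike-scaled ratios of Sod2 were 3.02 and 1.42, those of Fth1 2.60 and 1.06, those of Hmox1 1.97 and 0.50, and those of Ftl1 1.55 and -0.003, so Ftl1 had no steady direction by that scaling.

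Slc40a1 was sparse. It had a read in 37 of 178 TNF cells (20.8%, exact 95% interval 15.1% to 27.5%) and in 15 of 60 blank cells (25%, 14.7% to 37.9%), and after thinning in 18.5% of 157 TNF and 19.3% of 57 blank cells. Summed reads gave 13.5 CPM in TNF and 3.42 CPM in blank cells of the 1-plate experiment, and 3.33 CPM in TNF and 2.57 CPM in blank cells of the 2-plate experiment. One TNF cell held 55.7% of the TNF reads of the 1-plate experiment, and without the cell with the most reads in each group those levels were 6.11 CPM in TNF and 1.63 CPM in blank cells. The log2 ratio was 1.18 ± 1.14 (SD, n = 2 experiments), a mean and a spread of like size, and no direction is read from it.

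Of the 5 members at 10 CPM or more, 4 were higher in TNF than in blank cells in both experiments, and 22.9% of the 8514 genes at that level were. Their median log2 ratio was 0.82 (Slc40a1 left out), against -0.05 over those 8514 genes. Since the stimulus contrast was among the values the genes were chosen on, nothing is read from either figure.

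The cells with fewer than 8000 detected genes on Plate2 touch these values. The 24 such TNF cells had 237 CPM of Sod2, 2647 CPM of Fth1, 1222 CPM of Ftl1, 138 CPM of Hmox1 and 49.8 CPM of Tfrc. The other 44 TNF cells of that plate had 702 CPM, 6682 CPM, 3554 CPM, 317 CPM and 284 CPM of the same genes. Slc40a1 had reads in 0 of the 24 cells, which by the limit of 3 counts allows a share of up to 12.5% (exact 95% upper bound 14.2%); all 24 have few detected genes of any kind. All 5 other members were lower in the cells with few genes, and Tfrc the most in proportion. Without all cells below 8000 genes in both experiments, the log2 ratios of TNF over blank were 1.82 for Sod2, 1.48 for Fth1, 0.48 for Ftl1, 0.74 for Hmox1 and -0.38 for Tfrc.

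Response classes divided the TNF cells further. The sums hold 20 oscillatory and 25 transient cells in the 1-plate experiment, and 36 oscillatory and 51 transient cells in the 2-plate experiment. The class names refer to the course of a cell's response as the authors called it.

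Sod2 was at 727 CPM in oscillatory and 486 CPM in transient TNF cells of the 1-plate experiment, and at 837 CPM in oscillatory and 529 CPM in transient TNF cells of the 2-plate experiment. The log2 ratio was 0.62 ± 0.06 (SD, n = 2 experiments). Median oscillatory cells held 668 CPM and 893 CPM, against 456 CPM and 389 CPM for median transient cells. The classes overlapped widely, with single oscillatory cells from 79.8 CPM to 1907 CPM in the 2-plate experiment and transient cells from 16 CPM to 2123 CPM.

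Fth1 showed a like difference, with 8766 CPM in oscillatory and 6190 CPM in transient cells of the 1-plate experiment, and 8989 CPM in oscillatory and 5474 CPM in transient cells of the 2-plate experiment (log2 ratio 0.61 ± 0.15, SD, n = 2 experiments). Ftl1 was at 2756 CPM in oscillatory and 2305 CPM in transient cells, and at 3925 CPM in oscillatory and 2888 CPM in transient cells, in the same order of experiments (0.35 ± 0.13). Hmox1 had a log2 ratio of 0.83 ± 0.59, with 411 CPM in oscillatory and 309 CPM in transient cells of the 1-plate experiment and 384 CPM in oscillatory and 162 CPM in transient cells of the 2-plate experiment. Its ratio ran to 4.20 on Plate2 and 1.62 on Plate1.

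Tfrc was lower in oscillatory cells, at 267 CPM against 420 CPM in transient cells of the 1-plate experiment, and at 190 CPM against 349 CPM in transient cells of the 2-plate experiment (log2 ratio -0.77 ± 0.16, SD, n = 2 experiments). Only 3 of 20 and 6 of 36 oscillatory cells lay above the median transient cell of their experiment. Of the 5 members at 10 CPM or more, 4 were higher in oscillatory cells in both experiments, and 27.6% of 8477 genes were. Nothing is read from that count either.

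Set against the 13 and 34 non-responsive blank cells, both TNF classes had more Sod2 and Fth1 in both experiments. Oscillatory cells had log2 ratios of 2.21 ± 0.14 for Sod2, 1.80 ± 0.22 for Fth1, 0.58 ± 0.13 for Ftl1, 0.94 ± 0.34 for Hmox1 and -0.73 ± 0.18 for Tfrc. Transient cells had 1.59 ± 0.09, 1.19 ± 0.06, 0.23 ± 0.001, 0.11 ± 0.25 and 0.04 ± 0.02 for the same genes (SD, n = 2 experiments). Both sets of ratios use the same blank cells. Scaled to spike-in reads, Tfrc had no steady direction in either, with log2 ratios of 1.07 and -1.12 in oscillatory and of 1.32 and -0.23 in transient cells of the 1-plate and the 2-plate experiment. For Hmox1, 1 cell gave 66.5% and 32.3% of the reads of these blank cells. Without the cell with the most Hmox1 reads in each group, its log2 ratios were 1.31 and 0.18 in transient and 1.66 and 1.55 in oscillatory cells. In both experiments 4 of the 5 members at 10 CPM or more were higher in oscillatory than in non-responsive blank cells, where 25.5% of 8483 genes were, and 4 of 5 in transient cells, where 22.9% of 8473 genes were. The 4 are not the same genes. Tfrc is left out in oscillatory cells and Hmox1 in transient cells, where Tfrc counts at 1.04-fold and 1.02-fold. Nothing is read from these counts, since both contrasts were among the values the genes were chosen on.

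TNF cells called non-responsive, 3 and 18 in number, differed from non-responsive blank cells in summed Sod2 and Fth1 reads. Sod2 was at 741 CPM and 622 CPM in the 1-plate and the 2-plate experiment, against 168 CPM in non-responsive blank cells of each. Fth1 was at 6572 CPM and 7512 CPM, against 2803 CPM and 2328 CPM in non-responsive blank cells. Log2 ratios were 2.01 ± 0.18 for Sod2, 1.46 ± 0.33 for Fth1, 0.33 ± 0.12 for Ftl1, 1.08 ± 0.01 for Hmox1 and -0.51 ± 0.17 for Tfrc (SD, n = 2 experiments). The Hmox1 sums rest on few cells, since 1 cell gave 66.5% and 32.3% of the blank reads, and 45% and 36.7% of the TNF reads. Median TNF cells held 499 CPM of Hmox1 against 88.3 CPM in the 1-plate experiment and 127 CPM against 37.9 CPM on Plate1. On Plate2 the median TNF cell was lower, at 36.6 CPM against 44 CPM. In the 2-plate experiment the single cells spread from 0 to 1428 CPM of Sod2, and 12 of 18 exceeded the highest non-responsive blank cell. Of the 11 such cells on Plate2, 6 had fewer than 8000 genes. Spike-in reads were 0.213% of the reads of non-responsive TNF cells in the 1-plate experiment, 1.16% on Plate1 and 3.55% on Plate2. Scaled to gene reads, 4 of the 5 members at 10 CPM or more were higher in both experiments, where 24.6% of 8493 genes were. Scaled to spike-in reads, 3 of the 5 were, where 6.16% of genes were. The direction of some members thus depends on the scaling.

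Cells called unclear or sustained with TNF, and blank cells called oscillatory, came from the 2-plate experiment. The 16 TNF cells called unclear had 811 CPM of Sod2 and 7114 CPM of Fth1, and the 5 sustained TNF cells 433 CPM and 4491 CPM. The 5 blank cells called oscillatory had 317 CPM of Sod2, from 52.8 CPM to 539 CPM in single cells, against 168 CPM summed over non-responsive blank cells. Their Fth1 stood at 3785 CPM in the sum but at 1403 CPM in the median cell, and their Hmox1 at 62.2 CPM. With 5 cells of 1 experiment these values have no replicate. The 4 TNF cells called outlier, 3 of the 1-plate and 1 of the 2-plate experiment, had 297 CPM of Sod2 and 1277 CPM of Fth1 when summed over both experiments.

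**Figure D2:**
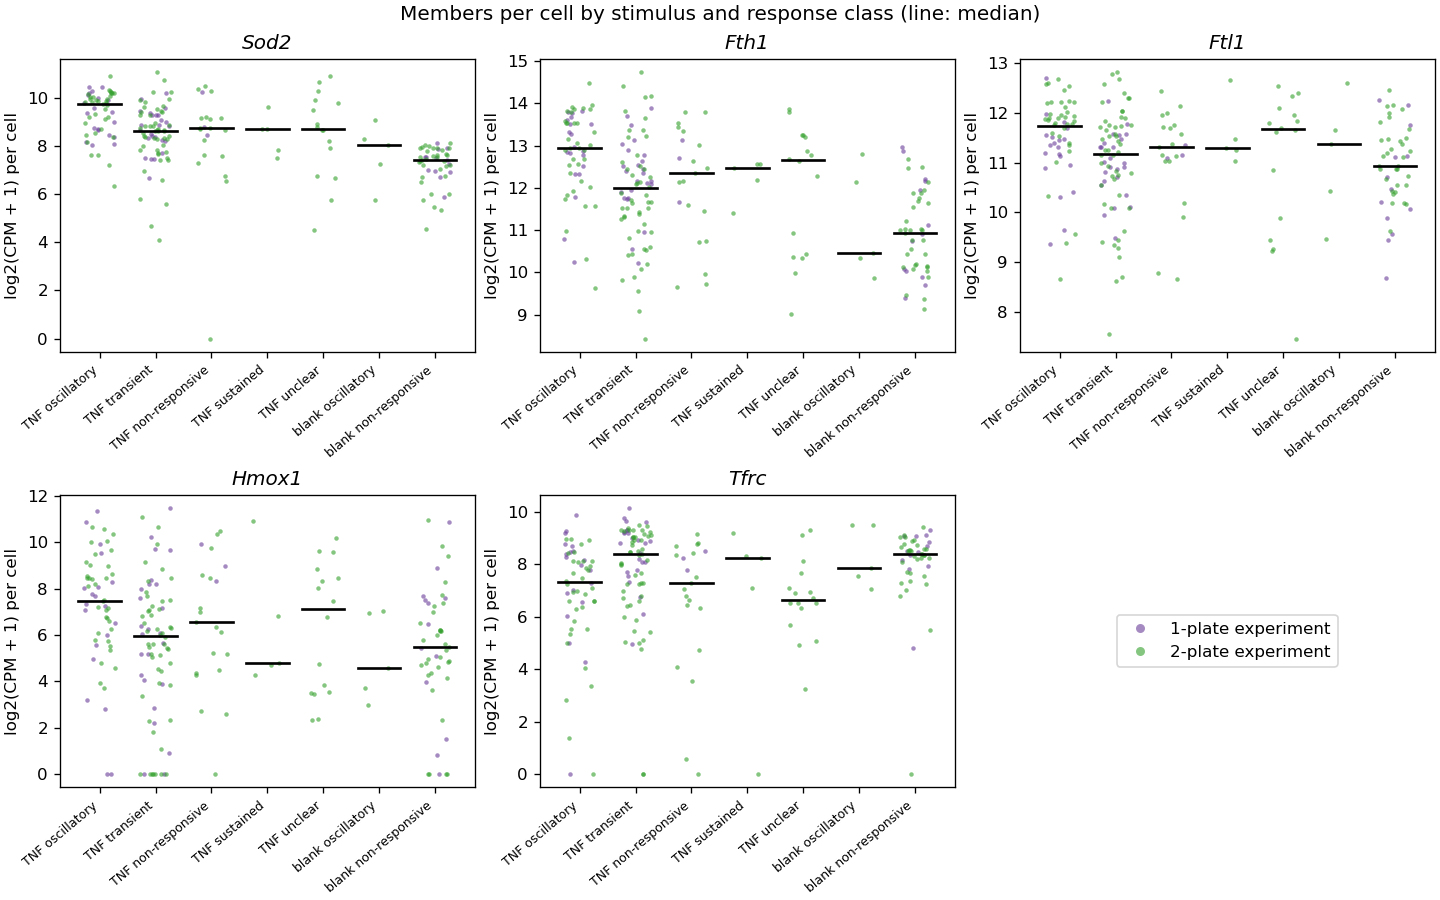
Each point is 1 cell, with log2(CPM + 1) of 5 genes on the vertical axis and the stimulus and response class on the horizontal axis; colours mark the experiment and black lines the medians over both. Oscillatory TNF cells have the highest Sod2, Fth1 and Ftl1 medians shown. The Sod2 and Fth1 medians of non-responsive TNF cells lie nearer to those of other TNF cells than to those of non-responsive blank cells. Classes of fewer than 5 cells in a stimulus are not drawn.

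The ferritin ratio was higher in the 3 largest TNF classes than in non-responsive blank cells of the same experiment. Fth1 to Ftl1 reads stood at 3.18 in oscillatory and 2.69 in transient TNF cells of the 1-plate experiment, and at 2.29 in oscillatory and 1.90 in transient TNF cells of the 2-plate experiment. Non-responsive TNF cells had 2.81 and 2.29. The 5 sustained TNF cells had 1.23 in the sum and 1.87 in the median cell, and 1 of them held far more Ftl1 than the rest. Non-responsive blank cells had 1.42 and 0.943, and the 5 oscillatory blank cells 1.13. The ratio was over 1 in 20 of 20 and 36 of 36 oscillatory TNF cells, and in 12 of 34 non-responsive blank cells of the 2-plate experiment.

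**Figure D3:**
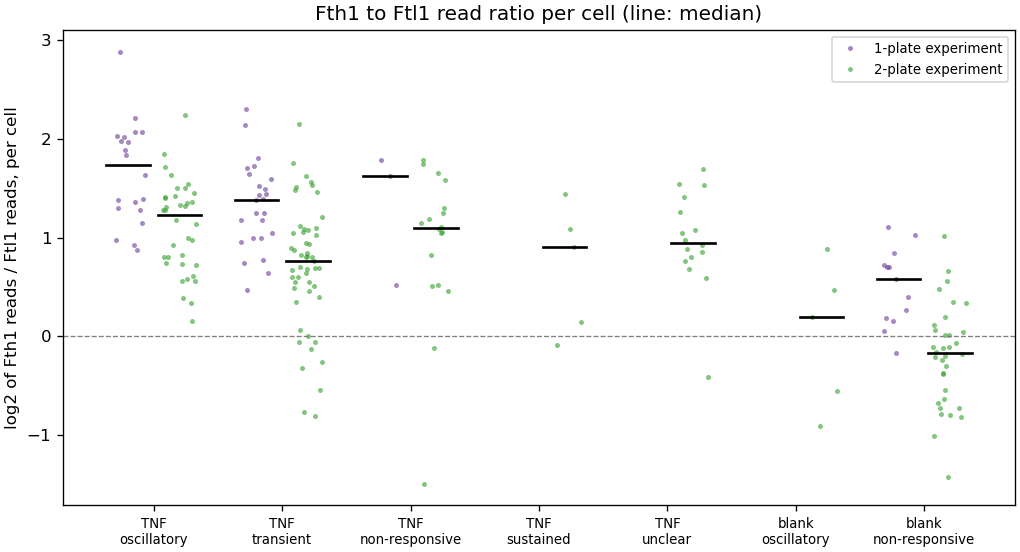
Each point is 1 cell, with the log2 of its Fth1 reads over its Ftl1 reads on the vertical axis, the stimulus and class on the horizontal axis and the experiment by colour; black lines are medians and the dashed line is an equal number of reads. All 56 oscillatory TNF cells lie above the dashed line, while the median non-responsive blank cell of the 2-plate experiment has a ratio of 0.889.

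The class differences varied with cell cycle phase. In G1 cells alone, Fth1 was at 11842 CPM in 4 oscillatory and 3555 CPM in 4 transient TNF cells of the 1-plate experiment, and at 10792 CPM in 12 oscillatory and 4676 CPM in 14 transient cells of the 2-plate experiment. In G2M cells alone, Fth1 was at 8131 CPM in 14 oscillatory and 7136 CPM in 14 transient cells, and at 8456 CPM in 22 oscillatory and 6463 CPM in 25 transient cells. The log2 ratio of oscillatory over transient was thus 1.47 for Fth1 in G1 and 0.29 in G2M. For Ftl1 it was 0.91 in G1 and 0.19 in G2M, for Tfrc -1.36 and -0.62, and for Sod2 0.89 and 0.44. In S there were 2 oscillatory cells per experiment. Ftl1 was lower in them, at 1419 CPM against 2376 CPM in 7 transient S cells of the 1-plate experiment. In the 2-plate experiment it was at 2589 CPM against 2678 CPM in 12 transient S cells. Fth1 had no steady direction in S, at 4711 CPM against 5933 CPM and at 5112 CPM against 3920 CPM. Sod2 and Tfrc had none in S either. Whether the ratio differs between phases was not tested. Against non-responsive blank G1 cells, transient G1 cells had no steady direction of Fth1, with 3555 CPM in transient and 4607 CPM in blank cells of the 1-plate experiment, and 4676 CPM in transient and 3103 CPM in blank cells of the 2-plate experiment. Their Sod2 was higher in both, at 320 CPM in transient and 168 CPM in blank cells, and at 476 CPM in transient and 131 CPM in blank cells. The 1-plate experiment has 3 blank G1 cells, and 5 of the 14 transient G1 cells of the 2-plate experiment had fewer than 8000 genes and 345 CPM to 947 CPM of Fth1.

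Members were also set against each other across cells, within each plate and stimulus, so that neither plate nor stimulus sets the relation. Such correlations share the depth and the gene reads of each cell and are given as a description. Response class and cell cycle phase still vary within these groups, and no correlation was taken within a class or phase. Fth1 and Ftl1 went together in all 6 groups, with Spearman's rho of log2(CPM + 1) from 0.80 to 0.96 over 16 to 68 cells. Fth1 and Hmox1 did so more loosely, with rho from 0.48 to 0.74.

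Sod2 and Fth1 went together in TNF cells but less plainly in blank cells. Over TNF cells rho was 0.65 in the 1-plate experiment (51 cells), 0.69 on Plate1 (59 cells) and 0.85 on Plate2 (68 cells). Over blank cells it was -0.49 (16 cells), -0.12 (24 cells) and 0.30 (20 cells). Levels of both above the median blank cell were found together in 43 of 51 and 94 of 127 TNF cells, against 2 of 16 and 12 of 44 blank cells. The difference between stimuli was not tested, and the range of Sod2 is narrower in blank cells.

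Tfrc ran against the ferritin genes once cells with few genes were set aside. Over cells with 8000 or more detected genes, rho of Fth1 with Tfrc lay between -0.70 and -0.49 in all 6 groups (14 to 59 cells), that of Ftl1 with Tfrc between -0.70 and -0.42, and that of Hmox1 with Tfrc between -0.70 and -0.32. With every cell included, Fth1 and Tfrc ranged from -0.53 to 0.09, the highest being TNF cells of Plate2, where 24 of 68 cells had few genes. Sod2 and Tfrc had no steady sign, with rho from -0.59 to 0.28 over the cells with 8000 or more genes.

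**Figure D4:**
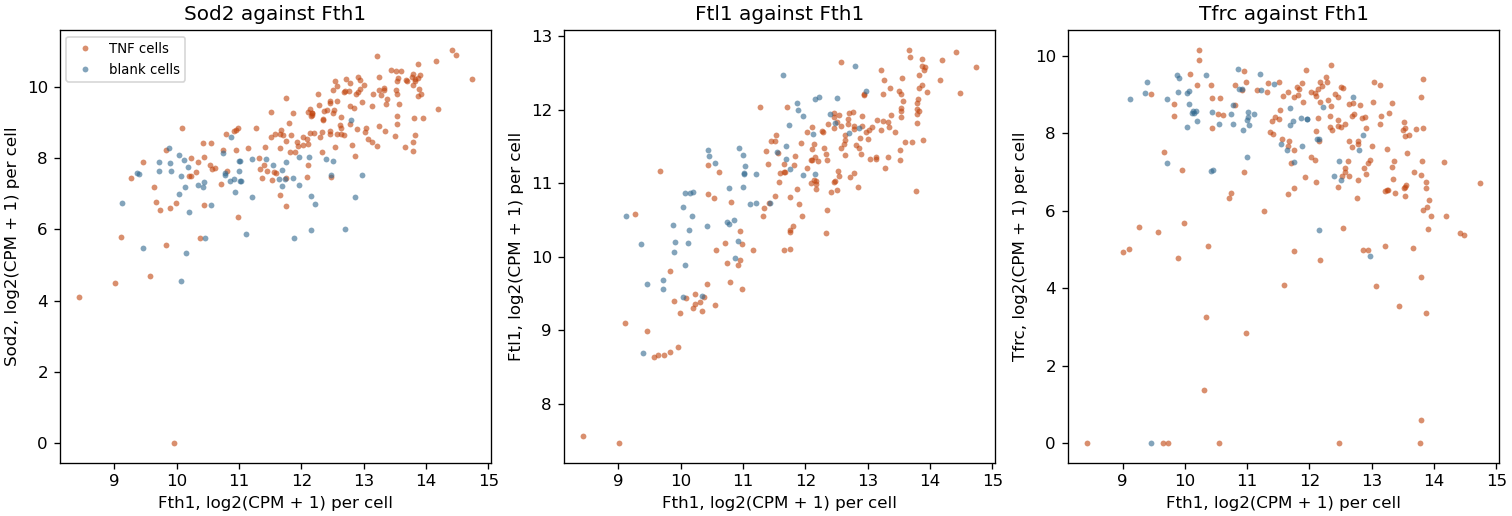
Each point is 1 cell, TNF in orange and blank in blue, with Fth1 as log2(CPM + 1) on the horizontal axis and Sod2, Ftl1 or Tfrc on the same scale on the vertical axis. Ftl1 climbs with Fth1 in both stimuli, with blank cells at a higher Ftl1 for a given Fth1, while Tfrc is lower in many of the cells with much Fth1 and at 0 in some cells at either end.

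Over all 238 cells, after the mean of each plate and stimulus was taken off, the gene most like Fth1 among 9198 genes with a read in at least 50% of cells was Ftl1, and the gene most like Ftl1 was Fth1 (Pearson's r = 0.870). The next was ENSMUSG00000084289 for Fth1 (r = 0.857) and ENSMUSG00000062382 for Ftl1 (r = 0.844), which the sources used here do not name. Whether either is a ferritin pseudogene that shares reads with these genes could not be checked. Fth1 ranked 24th of 9198 for Sod2 (r = 0.638) and 11th for Hmox1 (r = 0.590). For Tfrc, Hmox1 ranked 9106th of 9198 (r = -0.235), near the opposite end.

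The phase comparisons asked how the members differ along the cell cycle among TNF cells, where stimulus does not change with phase. Sums held 9 and 41 G1 cells, 12 and 23 S cells, and 30 and 63 G2M cells of the 1-plate and the 2-plate experiment. Across 14859 genes, 82 differed between G2M and G1 (0.552% of genes) and 144 between S and G1 (0.969%), by edgeR's quasi-likelihood fit with Benjamini-Hochberg adjustment over all genes and a threshold of 0.05. Of the 6 members, 0 were called in either comparison. For S against G1, 6 of 6 had an unadjusted edgeR p under 0.05, where 16.5% of all genes did, and DESeq2 called 5, where it called 10.7% of 13480 genes. For G2M against G1, 1 had an unadjusted edgeR p under 0.05, where 10.7% of all genes did, and DESeq2 called 1, where it called 5.37% of 12503 genes.

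In S phase, Fth1 was at 4957 CPM against 8323 CPM in G1 cells of the 1-plate experiment, and at 4347 CPM against 7833 CPM in G1 cells of the 2-plate experiment. The log2 fold change was -0.84 ± 0.13 (SE), with an edgeR adjusted p of 0.052 and a DESeq2 adjusted p of 1.2e-05. Ftl1 had a log2 fold change of -0.49 ± 0.13 (edgeR adjusted p = 0.14, DESeq2 0.026), with 2053 CPM in S and 2742 CPM in G1 cells, and 2622 CPM in S and 3661 CPM in G1 cells. Tfrc was the member with more reads in S, at 542 CPM against 248 CPM in G1 cells and at 348 CPM against 227 CPM in G1 cells. Its log2 fold change was 0.83 ± 0.16 (edgeR adjusted p = 0.079, DESeq2 0.0012). Summed over all TNF classes, both ferritin genes were lower and Tfrc was higher in S in 2 of 2 experiments. None of them passed the edgeR threshold in the fit described. Within transient TNF cells Ftl1 went the other way, as given below. With no low-count filter, a stricter one or sums per plate, edgeR called Fth1 (adjusted p = 0.0031, 0.021 and 0.0046) and Tfrc (0.026, 0.036 and 0.023), and on sums per plate also Ftl1 (0.045) and Sod2 (0.044). Those settings called 663 of 25211, 559 of 8536 and 751 of 13936 genes. Sums per plate count the 2 plates of 1 experiment as separate replicates, so their calls rest on more replicates than the 2 experiments give.

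Sod2 had 385 CPM in S and 483 CPM in G1 cells, and 421 CPM in S and 642 CPM in G1 cells, a log2 fold change of -0.51 ± 0.15 (edgeR adjusted p = 0.18, DESeq2 0.052). Hmox1 was at 392 CPM in S and 661 CPM in G1 cells, and at 87.5 CPM in S and 478 CPM in G1 cells, with a log2 fold change of -1.51 ± 0.49 (edgeR adjusted p = 0.21, DESeq2 0.0055). Slc40a1 had 15 and 64 reads in S against 539 and 288 reads in G1 cells (log2 fold change -3.76 ± 1.15, edgeR adjusted p = 0.19, DESeq2 0.00024). A single G1 cell gave 62.7% of those 539 reads, and with blank cells added as further strata the Slc40a1 fold change was -0.88 ± 2.07 (edgeR adjusted p = 0.89). Blank cells had 15.1 CPM and 23.5 CPM of Slc40a1 in S, against 0 and 1.74 CPM in G1. The class make-up moved with phase: 2 of 12 and 2 of 23 S cells were oscillatory, against 4 of 9 and 12 of 41 G1 cells. Its part in the S values was not tested. In transient TNF cells Ftl1 was higher in S, at 2376 CPM against 1944 CPM in G1 cells and at 2678 CPM against 2289 CPM. Their Fth1 had no steady direction, at 5933 CPM in S against 3555 CPM in G1 cells and at 3920 CPM against 4676 CPM. Oscillatory TNF cells, with 2 S cells per experiment, had less Fth1 in S (4711 CPM against 11842 CPM, and 5112 CPM against 10792 CPM). Values are of the 1-plate and then the 2-plate experiment. In blank cells, with 3 and 5 S cells, Fth1 stood at 1647 CPM in S against 4607 CPM in G1 cells and at 1097 CPM in S against 2755 CPM in G1 cells.

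Between G2M and G1 the ferritin genes were close, with log2 fold changes of -0.15 ± 0.13 for Fth1 and -0.15 ± 0.13 for Ftl1 (edgeR adjusted p = 0.71 and 0.73), which spike-in scaling turned to 0.17 and 0.18. Sod2 had 706 CPM in G2M and 483 CPM in G1 cells, and 746 CPM in G2M and 642 CPM in G1 cells, a log2 fold change of 0.36 ± 0.15 (edgeR adjusted p = 0.47). Tfrc was at 0.25 ± 0.16 (0.63) and Hmox1 at -1.13 ± 0.48 (0.47) by the same test. With blank cells added as further strata Hmox1 was at -0.15, and Ftl1 turned to 0.03. Slc40a1 had 53 and 315 reads in G2M cells, a log2 fold change of -3.35 ± 1.13 (edgeR adjusted p = 0.38, DESeq2 0.0022). With 2 experiments per phase, simulated 2-fold changes between S and G1 were recovered in 15.3% and 4-fold changes in 49.3% of cases over 14183 genes, so a missed threshold does not show that a gene is alike in both phases.

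**Figure D5:**
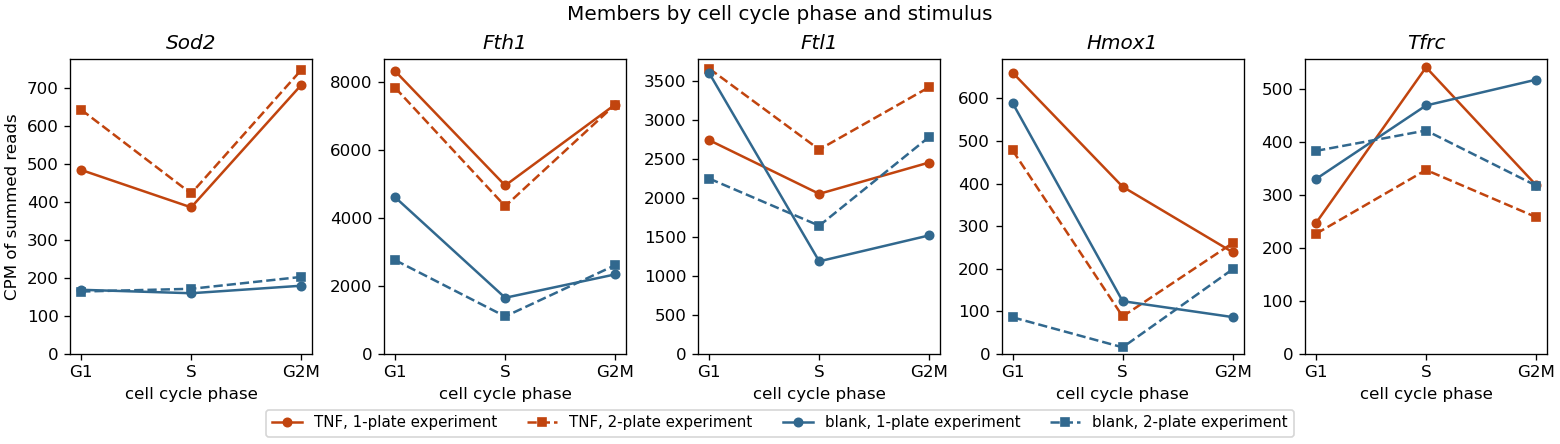
CPM of summed reads of 5 genes on the vertical axis in G1, S and G2M cells on the horizontal axis, TNF in orange and blank in blue, with circles and full lines for the 1-plate experiment and squares and dashed lines for the 2-plate experiment. In TNF cells of all classes together, Fth1 and Ftl1 are lowest and Tfrc highest in S phase in both experiments. The blank sums rest on as few as 3 cells.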

How the data were processed

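The authors deposited whole-read counts per gene identifier for single cells, unnormalised per the file headers; per the submitters' processing notes, SAMtools, Subread 1.5.0 and featureCounts were used. The sources used here do not give build, annotation or strand setting. Their cell tables also hold a score per phase, deposited as a fraction by the authors and not used here.

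The 6 genes, the lists and the tests were chosen with earlier results of these data known. Wells and plates in the labels linked count columns to samples; a further 357 columns match none and were left out. The 92 spike-in rows stayed out of library sizes, and 0 columns were identical. Depth was 182301 to 3380416 gene reads per cell, and there are no molecular identifiers. Exact intervals of detection treat cells as independent draws and do not cover variation between experiments. Gene lists and cell type markers set by symbol were not analysed here, because 0 identifiers matched the reference table (GRCm38.p6).

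CPM was computed from counts (Python 3.11.15), log2(CPM + 1) per cell for correlations. Phase sums of at least 5 cells (6 sums, 2 residual and 4.18 prior degrees of freedom) were tested with edgeR 4.0.16 in R 4.3.3 (default low-count filter, TMM, experiment as a term, quasi-likelihood, two-sided), with DESeq2 1.42.0 as an alternative. SE is the absolute log2 fold change over the square root of F. P-values measure how the phase differences vary between these 2 experiments, with a spread moderated across genes. That variation may be technical. The fit was tested on simulated data, where 14.6% of calls were false. Named genes are the 6 members and, of the genes most like them, at most 2 identifiers.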

Additional observations from a re-analysis of the deposited data

Results flagged for a closer look

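In groups of 4 to 10 cells, 25 combinations of group and gene were examined for a cell far from the rest, and 5 were found; chance gives about 1 in 20. Among the 5 sustained TNF cells of the 2-plate experiment, 1 cell had 6432 CPM of Ftl1, the next highest being 2855 CPM, and 1 cell had 0 CPM of Tfrc, the next lowest being 137 CPM. Among the 10 blank G2M cells of the 1-plate experiment, 1 cell had 0.768 CPM of Hmox1, the next lowest being 27.9 CPM. Among the 5 blank S cells of the 2-plate experiment, 1 cell had 43.2 CPM of Sod2, the next lowest being 162 CPM, and 1 cell had 0 CPM of Tfrc, the next lowest being 151 CPM.

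The 44 samples outside the cell tables, which have no stimulus or class and 1805 to 1130586 reads each, held values above the highest blank cell: 5 samples for Sod2, 10 for Fth1, 3 for Ftl1, 1 for Hmox1 and 4 for Tfrc. For Slc40a1 the number was 2.

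The 2 experiments had opposite signs in 3 comparisons, and the differences between experiments were not tested. The log2 ratio of Slc40a1 in oscillatory TNF over non-responsive blank cells was 1.37 (1-plate experiment) and -0.28 (2-plate experiment). In transient TNF over non-responsive blank cells it was 2.14 and -0.24, and that of Hmox1 was 0.29 and -0.07. Without the cell with the most Hmox1 reads in each group, the Hmox1 ratios were 1.31 and 0.18.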

How the results depend on the processing

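Over 13 other settings, the log2 ratios (means over the experiments) of Sod2, Fth1, Ftl1, Hmox1 and Tfrc kept their direction in 64 of 65 values for TNF over blank, in 65 of 65 for oscillatory over transient TNF, in 65 of 65 for oscillatory TNF over non-responsive blank and in 58 of 65 for transient TNF over non-responsive blank cells. Spike-in scaling, the removal of cells below 8000 genes and the removal of the cell with the most reads were chosen after seeing the data. TNF over blank ranged from 1.45 to 2.22 for Sod2 and from 1.18 to 1.83 for Fth1. Tfrc turned to 0.029 for TNF over blank with spike-in scaling. For oscillatory TNF over non-responsive blank cells its spike-scaled mean of -0.025 counts as kept, though the 2 experiments gave 1.07 and -1.12. A kept mean thus does not show that both experiments had the same direction. For transient TNF over non-responsive blank cells Tfrc turned to -0.16 and -0.13 as a mean over cells of log2(CPM + 1) and log2(CPM + 10), to -0.021 without Plate2 and to -0.033 in G2M cells, and Ftl1 to -0.49 in G1 cells. Hmox1 kept its direction there in 11 of 13 settings, with values from -0.07 to 0.74. With sparse Slc40a1 counted in, members higher in both experiments numbered 5 of 6 for TNF over blank. Of the 5 at 10 CPM or more, 4 were (22.9% of genes at that level), against 3 in G1 cells (24.5% of genes) and 3 with spike-in scaling (9.14%). For transient TNF over non-responsive blank 4 of 5 were (22.9%), against 2 by the mean over cells of log2(CPM + 1) (13.5%), 1 in G1 cells (21.6%) and 2 with spike-in scaling (13.2%). The cause was not tested.

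Calls between G2M and G1 numbered 82, and 672 with DESeq2, 244 with no filter, 124 with a stricter filter, 0 with no experiment term (748 at an unadjusted p under 0.05), 174 with blank cells as further strata, 194 on sums per plate and 138 with spike-in scaling, which moved the median of all genes to 0.37. Calls between S and G1 numbered 144, and 1438, 663, 559, 0 (1330 at an unadjusted p under 0.05), 359, 751 and 157 under the same settings, with a median of 0.13 under spike-in scaling. Members called between S and G1 numbered 5 with DESeq2 (1438 of 13480 genes called) and 4 on sums per plate (751 of 13936). Sums per plate count both plates of the 2-plate experiment as replicates. With no filter 2 members were called (663 of 25211 genes), and 2 with a stricter filter (559 of 8536). Fth1 alone was called with relative log expression factors (148 of 14859) and with strata (359 of 14037). Cells of 8000 or more genes also gave Fth1 alone (201 of 14571). Spike-in scaling called 0 members (157 of 14859 genes), as did the fit without the experiment term (0 of 14859). With 1 experiment left out no residual degrees of freedom remain, so only ratios were computed. The planned tests of pathway lists were not run, since identifiers could not be paired with names. No paired analysis was possible because the replicate numbers only name single cells within a plate; the experiment is already a term of the phase fit.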
